A study of Mus musculus with 6 samples.

Results

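Cholesterol synthesis was followed in the stromal vascular cells of inguinal white adipose tissue (iWAT) through 7 genes, Hmgcs1, Idi1, Fdps, Fdft1, Sqle, Lss and Insig1, which were found by their symbols among the 31053 genes counted. The cells came from male C57BL/6 mice, young (9 weeks) or aged (57 weeks), which were given 3 weeks at 30 °C to acclimate and were housed singly afterwards. The TN groups remained at 30 °C, the 3D cold groups had 6 °C on their last 3 days and the 14D cold groups had 6 °C for 14 days. Live cells were sorted without CD45+ immune cells and sequenced with a 10x 3′ kit in 6 libraries, 1 for each age and temperature. The mice were C57BL/6JN from the National Institute of Aging or C57BL/6J from Jackson Laboratories, and which library held which was not stated. The number of mice per library was not stated either, so a library was taken as 1 sample. With 1 library per age and temperature, no spread between replicates was measured. The p-values for age and cold rest on departures from additive effects of age and temperature. An age effect that differed with temperature would count as error in them.

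Cells make cholesterol from acetyl-CoA by the mevalonate pathway. Hmgcs1 makes HMG-CoA, the precursor of mevalonate; Idi1 and Fdps build the isoprenoid farnesyl diphosphate; Fdft1 joins farnesyl units into squalene; Sqle oxidises squalene and Lss closes it into lanosterol, the first sterol. The transcription factor SREBP2 drives these genes when membrane sterol is low, and Insig1 holds SREBP2 and its escort SCAP in the endoplasmic reticulum when sterol is plentiful, while also being an SREBP target itself. In fibroblastic adipocyte stem and progenitor cells (ASPCs), as in most cells, sterol also enters with lipoproteins and leaves through the exporters Abca1 and Abcg1.

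In the GRCm38 annotation the genes are all protein coding. Hmgcs1 (ENSMUSG00000093930) lies on chromosome 13 from 119690379 to 119708260 on the plus strand and Idi1 (ENSMUSG00000058258) on the same chromosome from 8885501 to 8892451, plus strand. Fdps (ENSMUSG00000059743) is on chromosome 3 from 89093588 to 89101959 and Fdft1 (ENSMUSG00000021273) on chromosome 14 from 63145150 to 63179578, both on the minus strand. Sqle (ENSMUSG00000022351) is on chromosome 15 from 59315077 to 59331192, Lss (ENSMUSG00000033105) on chromosome 10 from 76531588 to 76557138 and Insig1 (ENSMUSG00000045294) on chromosome 5 from 28071363 to 28078662, all on the plus strand.

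Promoters are shown for the members found in the RefSeq table of GRCm38.p6, because the letters that SREBP2 and its partners are known to bind can be searched for in them. The windows of Hmgcs1 (chr13:119690101-119690400), Idi1 (chr13:8885356-8885655), Lss (chr10:76531355-76531654) and Insig1 (chr5:28071162-28071461), all on the plus strand, run from 250 bases before the start to 50 after it. Fdps, Fdft1 and Sqle were not matched. Capitals mark matches on either strand to the sterol regulatory element TCACNCCAC, to the CCAAT box bound by NF-Y (CCAAT, or ATTGG on the other strand) and to the GC box bound by Sp1 (GGGCGG or CCGCCC).
Hmgcs1: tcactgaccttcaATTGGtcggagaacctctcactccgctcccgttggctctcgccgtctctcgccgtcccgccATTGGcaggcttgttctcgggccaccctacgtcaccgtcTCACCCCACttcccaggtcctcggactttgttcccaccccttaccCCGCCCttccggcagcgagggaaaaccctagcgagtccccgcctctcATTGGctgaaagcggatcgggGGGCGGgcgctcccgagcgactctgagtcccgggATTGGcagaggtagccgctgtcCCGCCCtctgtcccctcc
Idi1: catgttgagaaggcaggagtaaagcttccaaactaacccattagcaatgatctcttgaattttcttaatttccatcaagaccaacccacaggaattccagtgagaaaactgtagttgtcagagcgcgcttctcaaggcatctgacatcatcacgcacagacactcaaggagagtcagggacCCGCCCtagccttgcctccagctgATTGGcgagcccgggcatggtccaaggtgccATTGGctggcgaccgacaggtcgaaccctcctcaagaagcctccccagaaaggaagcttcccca
Lss: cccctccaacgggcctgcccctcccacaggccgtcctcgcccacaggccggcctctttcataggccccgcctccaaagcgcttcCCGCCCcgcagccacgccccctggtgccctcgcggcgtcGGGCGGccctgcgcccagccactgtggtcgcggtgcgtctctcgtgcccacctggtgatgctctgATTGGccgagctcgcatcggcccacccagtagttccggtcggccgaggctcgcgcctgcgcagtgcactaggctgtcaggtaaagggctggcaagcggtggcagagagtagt
Insig1: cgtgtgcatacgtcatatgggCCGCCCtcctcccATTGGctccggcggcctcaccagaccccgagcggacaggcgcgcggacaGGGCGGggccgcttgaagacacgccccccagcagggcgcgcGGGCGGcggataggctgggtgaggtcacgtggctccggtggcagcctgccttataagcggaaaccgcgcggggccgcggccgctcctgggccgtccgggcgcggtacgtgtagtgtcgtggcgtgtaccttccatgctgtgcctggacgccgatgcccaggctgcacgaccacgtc
The sterol element stood in the Hmgcs1 window, as TCACCCCAC beginning 137 bases before the start, and in 1.24% of the 32851 promoter windows in the table. CCAAT boxes were counted 4 times in Hmgcs1, 2 times in Idi1 and 1 time each in Lss and Insig1, against 37.4% of all windows with at least 1, and GC boxes stood in the windows of all 4 genes and in 35.7% of all windows. The windows of Idi1, Lss and Insig1 held no match to the sterol element. No searched motif overlapped another in any of the 4 windows. The matches describe letters in these windows only.

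The 6 libraries held 68103 barcodes and between 52068837 and 88508349 UMIs (molecular barcodes that count captured transcripts once), and 57326 cells passed the limits on UMIs, genes and mitochondrial share. The aged 14D cold library was the shallowest, with a median of 2588 UMIs per barcode against 6232 to 8954 in the others. Any pair of libraries shared 30 to 44 barcodes, and no pair held identical counts. Cells were assigned to 7 classes by their average score over marker genes, none of them a cholesterol gene: 18487 were Dpp4+ fibroblast-like, 15671 Icam1+ preadipocyte-like, 4618 Cd142+ fibroblast-like, 4961 endothelial-like, 2459 SMC/pericyte-like, 600 Schwann-like and 696 immune-like. Each class is a range of scores rather than a sharp type. Of the cells inside the 3 fibroblastic ASPC classes, 1425, 1309 and 520 lay within 0.1 of a limit, and all 10, 8 and 7 of their markers were detected. Cells with high doublet scores were kept in the values below. Levels are CPM, the UMIs of a gene summed over a class in a library and scaled to the same total UMIs, with TMM factors set within the class, and a difference is called where edgeR's quasi-likelihood test gives a Benjamini-Hochberg adjusted p under 0.05 over all genes tested.

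Icam1+ preadipocytes had the highest mean level of 5 of the 7 genes, Hmgcs1, Sqle, Idi1, Insig1 and Fdps, although for Fdps the Schwann-like mean was nearer than the spread between libraries. Hmgcs1 averaged 277 CPM ± 70.6 (SD, n = 6 libraries) there, against 85.9 ± 23.8 in Cd142+ fibroblasts and 70.6 ± 11.1 in Dpp4+ fibroblasts. The lowest Icam1+ library, with 189 CPM, lay above the highest library of the other ASPC classes, at 118 CPM in Cd142+ fibroblasts. Sqle ran from 85.4 to 134 CPM in the 6 Icam1+ sums and from 10.5 to 23.3 CPM in the Dpp4+ sums, again without overlap. Compared within libraries, the Icam1+ level was higher than the Dpp4+ level by a log2 difference of 2.63 ± 0.14 (SE) for Sqle, 2.20 ± 0.15 for Idi1, 1.98 ± 0.13 for Hmgcs1, 1.66 ± 0.10 for Fdft1, 1.35 ± 0.11 for Fdps and 1.13 ± 0.11 for Insig1. These 6 were called by edgeR's quasi-likelihood test with library as a block, where 29.8% of the 12991 genes tested were called higher, and Lss, at 0.23 ± 0.18, was not (adjusted p = 0.27).

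Cd142+ fibroblasts exceeded Dpp4+ fibroblasts for 4 genes, with log2 differences of 1.00 ± 0.15 for Sqle, 0.75 ± 0.16 for Idi1, 0.71 ± 0.13 for Fdft1 and 0.39 ± 0.13 for Fdps, beside 23.5% of all genes called higher in that comparison. Hmgcs1 (0.28 ± 0.13), Lss (0.21 ± 0.22) and Insig1 (-0.10 ± 0.11) did not pass. Schwann-like cells exceeded Dpp4+ fibroblasts for Hmgcs1, Idi1, Fdps, Fdft1 and Sqle by 0.90 to 1.51 on the log2 scale, from only 57 cells in the smallest library, beside 15.3% of genes called higher. Endothelial-like cells were lower for Insig1 (-0.96 ± 0.11), Lss (-0.88 ± 0.27) and Hmgcs1 (-0.44 ± 0.14), beside 37% of genes called lower. For Fdft1 the Schwann-like mean (28.2 CPM) and the Icam1+ mean (26.8 CPM) differed by less than the spread between libraries, and Lss stayed at 3.71 CPM or below on average in every class, with neighbouring classes apart by less than 1 SD except at the bottom of the order.

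**Figure D1:**
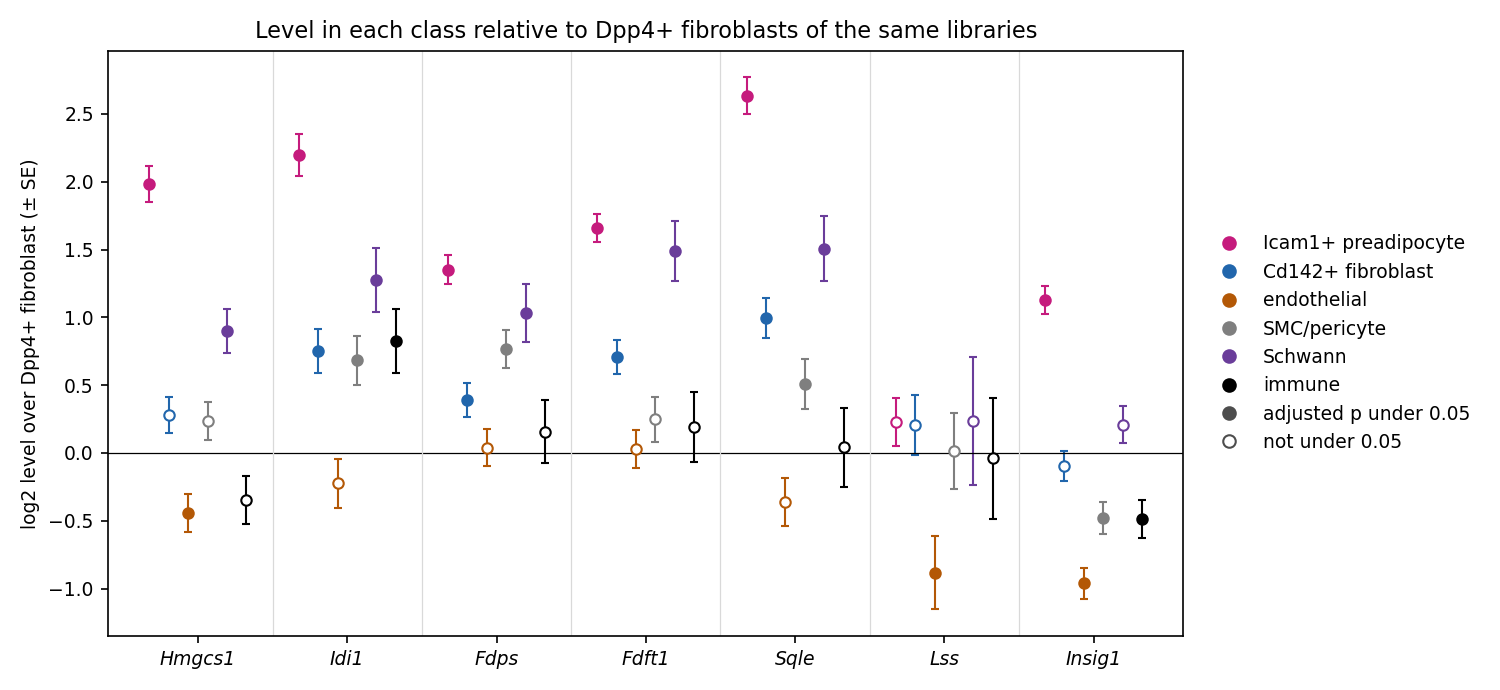
Level of each cholesterol synthesis gene in 6 cell classes relative to Dpp4+ fibroblasts, as log2 differences with standard errors from a fit with library as a block (6 libraries); filled points have an adjusted p under 0.05. The Icam1+ points lie above 0 for all 7 genes, from 0.23 for Lss to 2.63 for Sqle.

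The first question was whether age changed these genes in the progenitors. In Icam1+ preadipocytes 4 of the 7 genes were higher in aged mice, Hmgcs1, Idi1, Sqle and Insig1, by 1.30- to 1.46-fold, and Fdps, Fdft1 and Lss did not pass. Insig1, the sterol-responsive brake, was at 140.4 CPM at TN, 168 at 3D cold and 162 at 14D cold in young mice and at 182, 245 and 260.1 CPM in aged mice. All 3 aged sums lay above all 3 young sums. Idi1, which isomerises isopentenyl diphosphate, was at 99.8, 89.1 and 109 CPM in young and at 129, 144 and 157 CPM in aged mice in the same order, also without overlap. Hmgcs1, the synthase that feeds the pathway, was at 212, 189 and 278 CPM in young and at 277, 332 and 376 CPM in aged mice. It was higher in aged mice at each temperature, although the aged TN sum stood slightly below the young 14D cold sum. Sqle was at 85.5, 85.4 and 86.7 CPM in young and at 91.8, 114 and 134 CPM in aged mice, so the ages did not overlap and the distance between them was largest at 14D cold.

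Across the 3 temperatures the log2 fold change of aged over young Icam1+ preadipocytes was 0.55 ± 0.09 (SE) for Hmgcs1 (edgeR's quasi-likelihood test, adjusted p = 0.00356). By the same edgeR test it was 0.53 ± 0.07 for Idi1 (adjusted p = 0.00151), 0.53 ± 0.07 for Insig1 (adjusted p = 0.00143) and 0.38 ± 0.09 for Sqle (adjusted p = 0.0224). Of the 13130 genes tested, 7.62% were called higher with age, and 22.5% had ages that did not overlap, which held for 3 of the 7 genes. The median change over the 7 was 0.38 and over all genes -0.01. Fdps (0.08 ± 0.09), Fdft1 (-0.00 ± 0.08) and Lss (-0.09 ± 0.19) gave values near 0. Without the young 3D cold or the aged 3D cold library the count fell to 2, Idi1 and Insig1, and without the temperature term to 1, Idi1; DESeq2 called the same 4, beside 7.22% of genes in either direction.

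Cd142+ fibroblasts showed the same 4 genes called higher with age, by 1.33- to 1.58-fold. Insig1 was at 65.6, 62.1 and 67.1 CPM at TN, 3D cold and 14D cold in young mice and at 104, 84.2 and 123 CPM in aged mice, a log2 fold change of 0.66 ± 0.09 (edgeR, adjusted p = 0.000567). This was the only one of the 7 whose ages did not overlap in Cd142+ fibroblasts, against 23.6% of all genes tested. Hmgcs1 was at 70.5, 52.3 and 86.1 CPM in young and at 107, 81.9 and 118 CPM in aged mice, a change of 0.56 ± 0.08 (edgeR, adjusted p = 0.000723). Here the 3D cold sum was the lowest of each age, and the aged sum exceeded the young sum at each temperature. Idi1 changed by 0.57 ± 0.09 (edgeR, adjusted p = 0.00143) and Sqle by 0.42 ± 0.11 (edgeR, adjusted p = 0.0277), both higher at each of the 3 temperatures. In this class 5.96% of 11214 genes were called higher. Fdft1 (0.32 ± 0.17), Fdps (0.03 ± 0.15) and Lss (-0.08 ± 0.34) did not pass. The gated Cd142+ cells of the aged 14D cold library had a median of 2602.5 UMIs and 111 CPM of summed endothelial markers, against 16.1 to 43.9 CPM in the other 5; without that library the 4 genes were still called. Without the temperature term only Insig1 was. Sqle was not called by DESeq2, with equal cells at 2000 UMIs, or without any 1 of the TN and 3D cold libraries.

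Dpp4+ fibroblasts differed. None of the 7 genes was called higher with age, where 7.97% of all genes were, and 3 were called lower, Fdft1, Sqle and Fdps, which fell by 17.9% to 26.1%, beside 7.92% of 13088 genes called lower. No member had ages that did not overlap (23.8% of genes had). Sqle was at 18.5, 12.98 and 23.3 CPM in young and at 14.2, 10.5 and 18.8 CPM in aged mice. Its aged sum was lower at each temperature, while the spread between temperatures was wider than the distance between ages, so the ages overlapped. The log2 fold change was -0.33 ± 0.07 for Sqle (edgeR, adjusted p = 0.0139), -0.28 ± 0.07 for Fdps (edgeR, adjusted p = 0.0298) and -0.44 ± 0.12 for Fdft1 (edgeR, adjusted p = 0.0405). Fdft1, squalene synthase, was at 12.4, 6.71 and 11.4 CPM in young and at 11.4, 4.53 and 7.23 CPM in aged mice. Insig1 gave 0.22 ± 0.07 (edgeR, adjusted p = 0.0625), Hmgcs1 -0.12 ± 0.05, Lss -0.08 ± 0.17 and Idi1 -0.05 ± 0.07. DESeq2 called none of the 7 in this class, where it called 8.81% of genes in either direction, and none was called without the temperature term or with equal cells thinned to 2000 UMIs. Without the young or the aged 3D cold library only Insig1 was called, whose change over all 6 libraries was above 0, and the 3 lower calls were lost. With no gate margin Insig1, Sqle and Fdft1 were called.

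**Figure D2:**
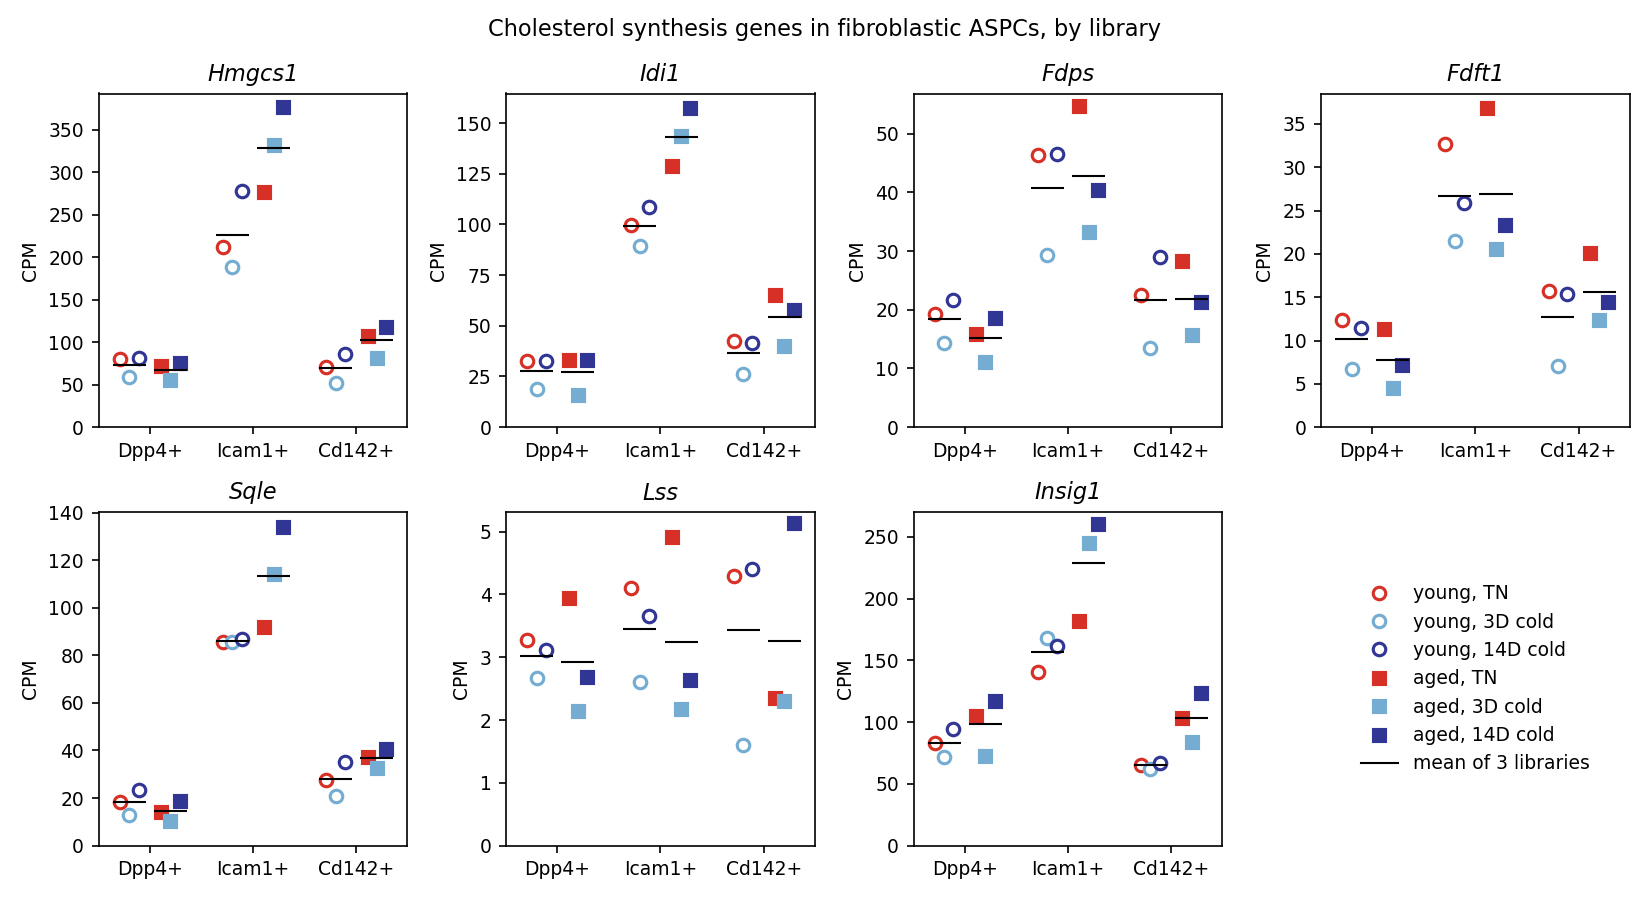
CPM of each cholesterol synthesis gene in the 6 libraries for Dpp4+ fibroblasts, Icam1+ preadipocytes and Cd142+ fibroblasts; open circles are young, filled squares aged, colours give the temperature and bars the mean of 3 libraries. In Icam1+ preadipocytes the aged squares of Insig1, Idi1 and Sqle all lie above the young circles, and the 3D cold points of Dpp4+ fibroblasts are the lowest of their age for each gene.

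The difference between classes was tested itself, on the sums of both classes with library as a block. The age effect was larger in Cd142+ than in Dpp4+ fibroblasts by a log2 difference of 0.70 ± 0.10 for Hmgcs1 (edgeR, adjusted p = 0.000656), 0.77 ± 0.14 for Sqle (edgeR, adjusted p = 0.00766), 0.64 ± 0.12 for Idi1 (edgeR, adjusted p = 0.00902) and 0.46 ± 0.10 for Insig1 (edgeR, adjusted p = 0.0216). In that comparison 1.14% of 12495 genes were called in this direction. Fdft1 gave 0.77 ± 0.19 (edgeR, adjusted p = 0.0547), and without the young 14D cold library only Hmgcs1 was called. Icam1+ preadipocytes against Dpp4+ fibroblasts gave differences of like size, 0.75 ± 0.22 for Sqle, 0.68 ± 0.16 for Hmgcs1 (edgeR, adjusted p = 0.0513) and 0.60 ± 0.26 for Idi1, but none was called, where 1.53% of 13689 genes were called in this direction, and 1 was called without the young 3D cold or the aged TN library. In a fit that also let the temperature effect differ between the classes, added after seeing the data, Hmgcs1, Sqle, Idi1 and Fdft1 were called in that pair, beside 4.3% of genes. Between Cd142+ fibroblasts and Icam1+ preadipocytes the age effects differed by -0.05 to 0.31 and none was called (1.94% of 12299 genes were, in either direction). No member was called for endothelial-like cells against Icam1+ preadipocytes, where 0.46% of 13265 genes were, in either direction.

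Outside the ASPCs the fitted age change of Insig1 was above 0 in each class, and 1 of these values was called. Insig1 was higher in aged Schwann-like cells, with 65.3, 100.0 and 84.9 CPM in young and 128, 158 and 174 CPM in aged mice, a log2 fold change of 0.88 ± 0.19 (edgeR, adjusted p = 0.0251), beside 0.814% of 6631 genes called higher. It was not called by DESeq2 (1.29% of genes were), with the stricter gate, with equal cells at 2000 UMIs, without the temperature term, or without any 1 of the young TN, young 14D cold, aged TN and aged 14D cold libraries. Its values were 0.49 ± 0.17 in endothelial-like, 0.61 ± 0.22 in SMC/pericyte-like and 0.73 ± 0.27 in immune-like cells, none of them called. In those 3 classes the aged 14D cold library, the shallowest, had the highest Insig1 sum, at 91.5, 145 and 130 CPM. No member was called for age in endothelial-like cells, where edgeR called 0.47% of all genes, or in SMC/pericyte-like cells, where it called 0.00942%. The fitted age changes of Hmgcs1, Idi1 and Sqle were 0.52 ± 0.10, 0.43 ± 0.20 and 0.64 ± 0.29 in endothelial-like cells. In SMC/pericyte-like cells they were 0.52 ± 0.21, 0.52 ± 0.18 and 0.59 ± 0.20. Fdft1 was below 0 in both classes (-0.17 ± 0.20 and -0.28 ± 0.27), and Idi1 was below 0 in Schwann-like and immune-like cells (-0.18 ± 0.21 and -0.68 ± 0.34). By edgeR 2 of the 6 members tested in endothelial-like cells had an unadjusted p under 0.05, beside 1390 of 11270 genes. In SMC/pericyte-like cells 4 of 6 had, beside 779 of 10615 genes. DESeq2 called no member in either class, and 0.301% and 0.0718% of genes. In endothelial-like cells Hmgcs1, Idi1 and Insig1 were called without the young TN library, and Hmgcs1 with the stricter gate. Summed over all kept cells, Hmgcs1 (0.39 ± 0.09), Idi1 (0.42 ± 0.06), Sqle (0.30 ± 0.05) and Insig1 (0.43 ± 0.05) were called higher with age, beside 5.2% of genes. None was called without the temperature term or without either 3D cold library, and only Idi1 without either 14D cold library. Such a sum also moves with the shares of the classes, which ran from 19.6% to 42.9% of kept cells for Dpp4+ fibroblasts and from 14.7% to 36.1% for Icam1+ preadipocytes.

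**Figure D3:**
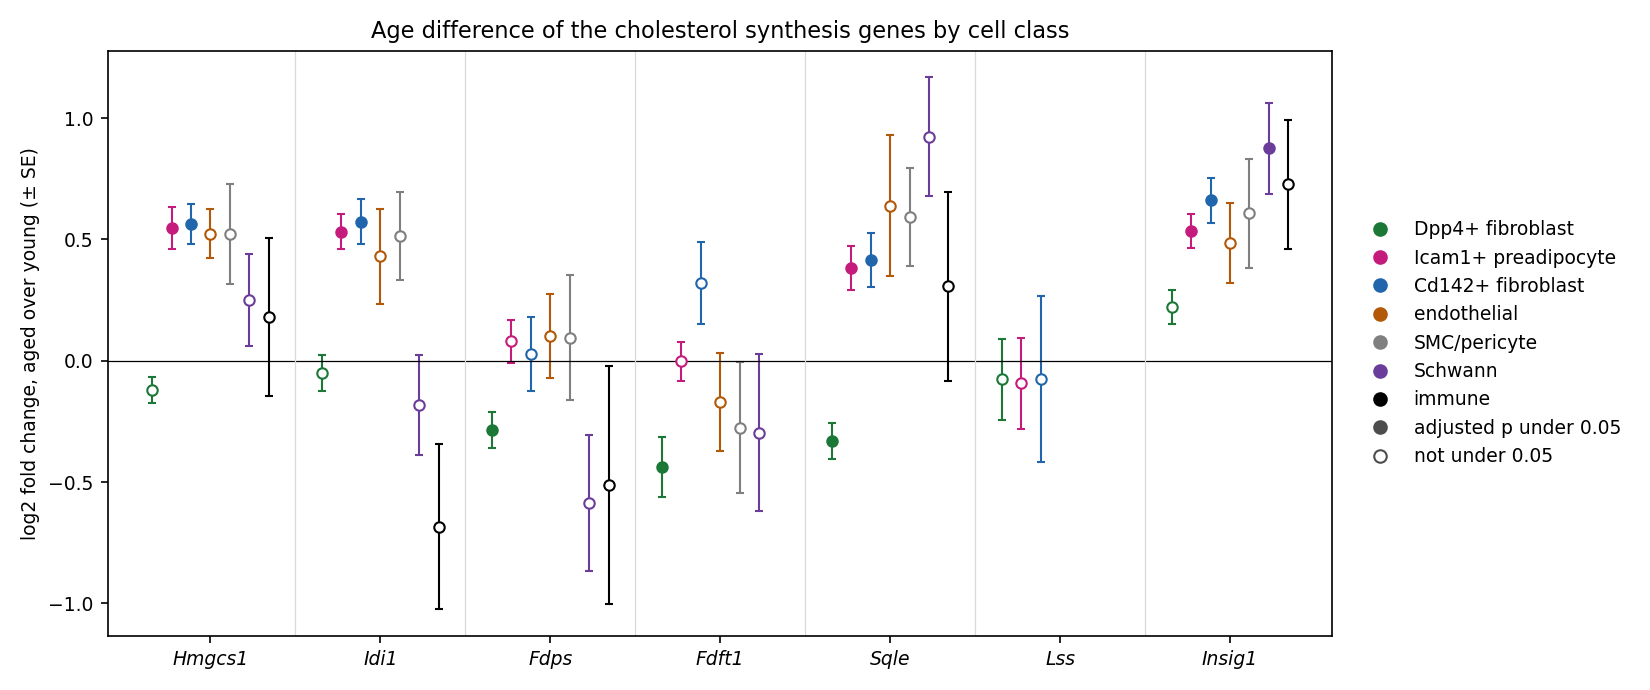
Log2 fold change of aged over young for each cholesterol synthesis gene in 7 cell classes, with standard errors (3 libraries against 3, temperature as a term); filled points have an adjusted p under 0.05. Hmgcs1, Idi1, Sqle and Insig1 lie between 0.38 and 0.66 in Icam1+ preadipocytes and Cd142+ fibroblasts, and the Dpp4+ points of Sqle, Fdps and Fdft1 lie between -0.44 and -0.28.

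The second question was how cold exposure acted. After 3 days at 6 °C, 6 of the 7 genes were lower than at TN in Dpp4+ fibroblasts, at 0.476 to 0.780 of the TN level by the fitted fold change, where 3.1% of 13088 genes were called lower. Idi1 went from 32.6 CPM at TN to 18.6 at 3D cold in young mice and from 33.0 to 15.9 in aged mice, a log2 fold change of -0.92 ± 0.09 (edgeR, adjusted p = 0.000985). Both 3D cold sums lay below both TN sums, and the 14D cold sums, 32.4 and 33.2 CPM, lay close to the TN sums. Fdft1 gave the largest change of the 7, -1.07 ± 0.15 (edgeR, adjusted p = 0.00486), from 12.4 to 6.71 CPM in young and from 11.4 to 4.53 CPM in aged mice. Hmgcs1 (-0.42 ± 0.07), Sqle (-0.48 ± 0.09), Fdps (-0.46 ± 0.09) and Insig1 (-0.36 ± 0.09) were called as well, and Lss gave -0.53 ± 0.20 without passing. The median over the 7 genes was -0.48, and that over all genes was -0.01. Each comparison of cold with TN rests on 2 libraries against 2. In the same Dpp4+ sums the red blood cell genes went from 4.02 CPM at TN to 165 at 3D cold in young and from 2.13 to 8.16 CPM in aged mice, and 2 of 5 cycling genes were called lower (median -1.69); their part in the result was not tested. Without the young 3D cold library 1 of the 7 was called (Idi1), without the aged 3D cold library 2 (Idi1 and Fdft1), and without the age term none; DESeq2 called 4, Hmgcs1, Idi1, Insig1 and Fdft1, and 4.5% of all genes.

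In Icam1+ preadipocytes the genes moved in both directions. Fdps, Fdft1 and Lss were lower at 3D cold, by -0.69 ± 0.11 (edgeR, adjusted p = 0.0062), -0.73 ± 0.10 (edgeR, adjusted p = 0.00337) and -0.91 ± 0.22 (edgeR, adjusted p = 0.037), beside 3.67% of genes called lower. Fdps went from 46.3 to 29.3 CPM in young and from 54.7 to 33.3 CPM in aged mice, with both cold sums under both TN sums. Insig1 was called higher at 0.34 ± 0.09 (edgeR, adjusted p = 0.046), from 140.4 to 168 CPM in young and from 182 to 245 CPM in aged mice, beside 3.82% of genes. The ranges at TN and 3D cold overlapped because the aged TN sum exceeded the young 3D cold sum. Hmgcs1 (0.05 ± 0.11), Idi1 (-0.00 ± 0.09) and Sqle (0.15 ± 0.11) did not pass. At 3D cold Hmgcs1 was lower than at TN by -0.17 in young mice and higher by 0.26 in aged mice on the log2 scale, each from 1 library against 1, so this difference had no test. DESeq2 (4.76% of genes called), the stricter gate and equal cells at 2000 UMIs each called Fdps and Fdft1 only, as did the fit without the aged TN library; without either 3D cold library, or without the age term, none was called.

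Cd142+ fibroblasts had 3 genes lower at 3D cold, Idi1 (-0.70 ± 0.11, edgeR, adjusted p = 0.00507), Fdft1 (-0.90 ± 0.21, edgeR, adjusted p = 0.0387) and Fdps (-0.79 ± 0.19, edgeR, adjusted p = 0.0441), beside 1.39% of genes. Idi1 went from 42.3 to 26.0 CPM in young and from 65.2 to 39.9 CPM in aged mice, changes of -0.70 and -0.71. All 7 fitted values were below 0 in this class. None was called by DESeq2 (1.94% of genes were), without the age term, without the aged TN library or with equal cells at 2000 UMIs, and 1 (Idi1) was called without the young 3D cold library. The values of the red blood cell list moved with temperature here, from 622 CPM at TN to 29.1 at 3D cold in young mice and from 298.5 to 7.03 CPM in aged mice, and their part in the result was not tested.

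Whether the 3D cold change differed between classes was examined after the values had been seen. The log2 change was higher in Icam1+ preadipocytes than in Dpp4+ fibroblasts by 0.93 ± 0.31 for Idi1, 0.71 ± 0.20 for Insig1 and 0.64 ± 0.36 for Sqle, and no member was called in the fit with temperature by class alone, where none of 13689 genes was. With age by class also in the fit, Idi1 (0.91 ± 0.13), Insig1 (0.71 ± 0.11) and Sqle (0.60 ± 0.12) were called by edgeR (adjusted p = 0.00342, 0.00768 and 0.0249), beside 1.3% of genes in this direction, and Hmgcs1 (0.47 ± 0.11) was not (adjusted p = 0.0544). In the same fit Idi1 (-0.72 ± 0.12), Insig1 (-0.54 ± 0.11) and Hmgcs1 (-0.46 ± 0.11) were called for Cd142+ fibroblasts against Icam1+ preadipocytes, beside 0.537% of genes, and none for Cd142+ against Dpp4+ fibroblasts, where 0.584% of genes were called.

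After 14 days of cold 1 call was left among the members of the 3 ASPC classes, Fdft1 in Icam1+ preadipocytes (-0.50 ± 0.10, edgeR, adjusted p = 0.0398), beside 1.32% of genes. Fdft1 was at 32.7 CPM at TN and 25.8 at 14D cold in young mice and at 36.9 and 23.3 CPM in aged mice, so both cold sums were below both TN sums. It was not called by DESeq2 (2.11% of genes were), by either other gate, without the age term, with equal cells at 2000 UMIs, or without any 1 of the young 3D cold, aged TN, aged 3D cold and aged 14D cold libraries. Hmgcs1 (0.41 ± 0.11) and Insig1 (0.36 ± 0.09) stood above 0 there without passing (edgeR, adjusted p = 0.0841 and 0.0735), and 4 genes were called without the young TN library (Hmgcs1, Sqle, Insig1 and Fdft1) and 4 without the young 14D cold library (Sqle, Insig1, Fdft1 and Fdps), while Hmgcs1 alone was called without the aged 14D cold library. In Dpp4+ fibroblasts no member was called by edgeR (3.68% of genes were) or DESeq2 (3.26%). There 2 of 7 had an unadjusted p under 0.05 by edgeR, beside 2675 of 13088 genes, and Sqle gave 0.36 ± 0.09 (edgeR, adjusted p = 0.0539). In Cd142+ fibroblasts none was called by edgeR or DESeq2, beside 0.553% of genes called by edgeR and 0.306% by DESeq2. None had an unadjusted p under 0.05 by edgeR, where 1186 of 11214 genes had. Whether the 14D cold change differed between classes was tested as planned, and no member was called in any pair of ASPC classes. None of the 12299 to 13689 genes tested in these pairs was called either.

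**Figure D4:**
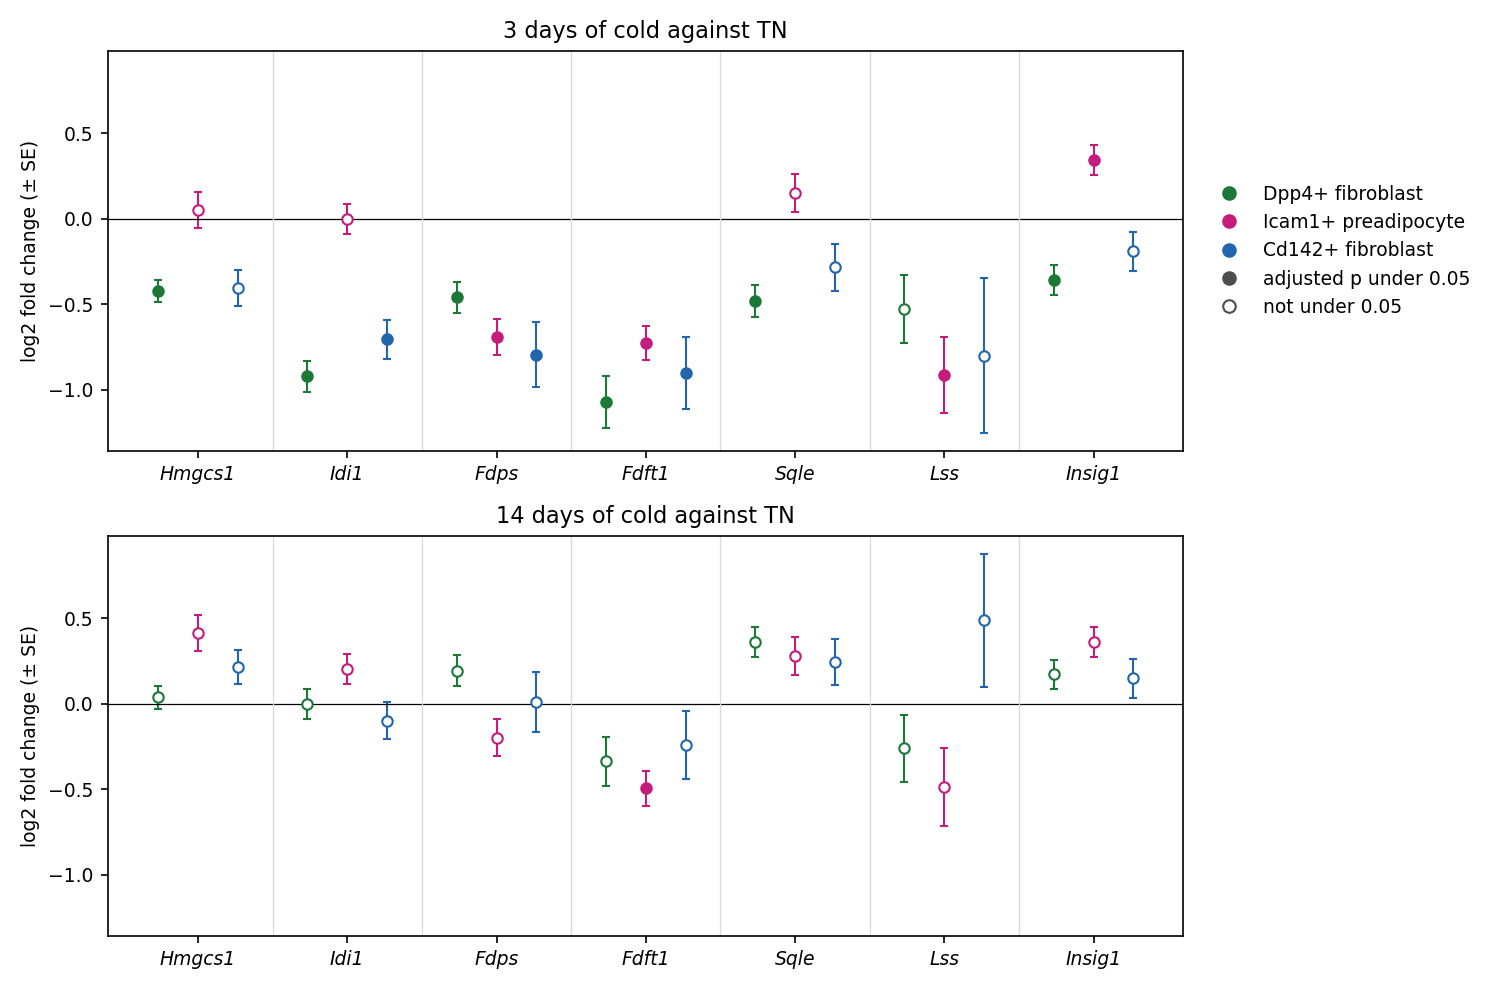
Log2 fold change of each cholesterol synthesis gene after 3 days (top) and 14 days (bottom) of cold against TN in the 3 ASPC classes, with standard errors (2 libraries against 2, age as a term); filled points have an adjusted p under 0.05. At 3 days all 7 Dpp4+ points lie below 0, from -1.07 for Fdft1 to -0.36 for Insig1, and at 14 days 1 point is filled, Fdft1 in Icam1+ preadipocytes.

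Over the 18 library by ASPC class sums, centred within class, correlations among the 7 genes are given in groups that were not fully separate. Hmgcs1, Idi1, Sqle and Insig1 had pairwise Pearson correlations of 0.74 to 0.90, and Fdps, Fdft1 and Lss of 0.66 to 0.84. Between the groups they ran from 0.02 for Insig1 with Lss to 0.68 for Idi1 with Fdft1, which exceeded the 0.66 of Lss with Fdps within a group. These are descriptions over sums that share libraries and depth, and Lss had under 6 CPM in every one. Among the 4848 other genes with at least 20 CPM in each ASPC class, those most like the mean of the 7 were Cyp51 (r = 0.94), the lanosterol demethylase that follows Lss, and Srebf2 (r = 0.93), which encodes SREBP2. Then came Angptl4, a secreted inhibitor of lipoprotein lipase (r = 0.86), and Chmp5, Exoc4, Gpsm3, Tpm1, Chpt1, Qdpr and Ggh, with r from 0.82 to 0.85.

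The other genes of the pathway were taken from lists of 39 genes on synthesis, control, uptake, efflux and fatty acid synthesis. Among the 14 other synthesis genes, 3 were called higher with age in Icam1+ preadipocytes and none lower: Cyp51 (0.42 ± 0.06), Msmo1 (0.35 ± 0.07) and Hsd17b7 (0.35 ± 0.08). In Cd142+ fibroblasts 2 of the 13 tested rose, Cyp51 (0.41 ± 0.12) and Hsd17b7 (0.72 ± 0.12), and none fell. In Dpp4+ fibroblasts 3 of 14 fell, Sc5d (-0.46 ± 0.09), Mvd (-0.45 ± 0.12) and Mvk (-0.44 ± 0.09), and Hsd17b7 rose (0.44 ± 0.12). Of all genes tested, 7.62% were called higher with age in Icam1+ preadipocytes and 5.96% in Cd142+ fibroblasts. In Dpp4+ fibroblasts 7.92% were called lower and 7.97% higher. Over the 14 genes the median age change was -0.04 in Icam1+ preadipocytes and -0.05 in Dpp4+ fibroblasts, near the median of all genes.

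Of the 6 SREBP control genes other than Insig1, edgeR called 1 higher with age in Dpp4+ and 1 in Cd142+ fibroblasts, Insig2 in both (0.30 ± 0.06 and 0.39 ± 0.09), and none in Icam1+ preadipocytes. Over all genes tested, 7.97%, 5.96% and 7.62% were called higher in these classes in that order. Among the 39 other pathway genes, 5 were called higher and 5 lower with age of 38 tested in Dpp4+ fibroblasts. The counts were 5 and 3 of 39 in Icam1+ preadipocytes and 5 and 2 of 36 in Cd142+ fibroblasts. Of all genes tested, 7.92%, 6.26% and 5.9% were called lower in Dpp4+, Icam1+ and Cd142+ cells in that order. These counts include Mylip, higher in Dpp4+ and Cd142+ fibroblasts, and Nr1h2, lower in Icam1+ preadipocytes. Stard4, a sterol carrier, rose with age in Icam1+ preadipocytes (0.51 ± 0.07) and fell in Dpp4+ fibroblasts (-0.35 ± 0.10). The exporter Abca1 rose with age in all 3 classes, by 0.48 ± 0.06 in Dpp4+, 0.27 ± 0.07 in Icam1+ and 0.42 ± 0.08 in Cd142+ cells. Abcg1 rose in Dpp4+ (1.65 ± 0.30) and fell in Cd142+ fibroblasts (-0.94 ± 0.23), but from levels of 0.457 to 3.11 CPM and 3.91 to 9.01 CPM. Of the fatty acid synthesis genes, Scd2, a stearoyl-CoA desaturase, fell with age in all 3 classes, by -0.80 ± 0.09 in Icam1+ preadipocytes, and Elovl6 fell in Icam1+ preadipocytes (-0.74 ± 0.10).

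At 3D cold, 4 of the 14 other synthesis genes fell in Dpp4+ fibroblasts, 3 in Icam1+ preadipocytes and 2 of 13 in Cd142+ fibroblasts, and none rose. Over all genes tested, 3.1%, 3.67% and 1.39% were called lower in these classes in that order. Nsdhl, Mvk and Pmvk fell in Dpp4+ fibroblasts (-0.69 ± 0.13, -0.58 ± 0.11 and -0.58 ± 0.12) and in Icam1+ preadipocytes (-0.91 ± 0.16, -0.86 ± 0.15 and -0.80 ± 0.18). Cyp51 fell in Dpp4+ (-0.65 ± 0.12) and Cd142+ fibroblasts (-0.73 ± 0.15) and gave 0.05 ± 0.08 in Icam1+ preadipocytes. Srebf2, the gene of SREBP2, fell in Dpp4+ fibroblasts (-0.37 ± 0.08) and gave -0.10 ± 0.07 in Icam1+ and -0.43 ± 0.11 in Cd142+ cells without passing. The exporter Abca1 rose in Icam1+ preadipocytes (0.39 ± 0.08), where Acly, named after its values were seen, fell (-0.36 ± 0.08). Srebf1, the gene of SREBP1, fell in all 3 classes by -0.71 to -0.56 and Scd2 fell in all 3 by -1.49 to -0.92. Elovl6 fell in Icam1+ (-0.47 ± 0.12) and Cd142+ cells (-0.97 ± 0.20), Sc5d in Cd142+ cells (-0.78 ± 0.14), and Stard4 (-0.61 ± 0.13) and Fasn (-0.42 ± 0.10) in Dpp4+ cells.

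By 14D cold 3 of the 38 other pathway genes tested were lower in Dpp4+ fibroblasts, 3 of 39 in Icam1+ preadipocytes and 1 of 36 in Cd142+ fibroblasts, and none of them was a synthesis gene. Over all genes tested, 1.87%, 1.32% and 0.214% were called lower in these classes in that order. Scd2 was lower in all 3 classes (-0.89 ± 0.14, -0.70 ± 0.12 and -0.65 ± 0.12 in that order) and Mylip in Dpp4+ (-0.42 ± 0.09) and Icam1+ cells (-0.74 ± 0.13). Srebf1 was lower in Icam1+ preadipocytes (-0.63 ± 0.13) and Abca1 in Dpp4+ fibroblasts (-0.51 ± 0.07).

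**Figure D5:**
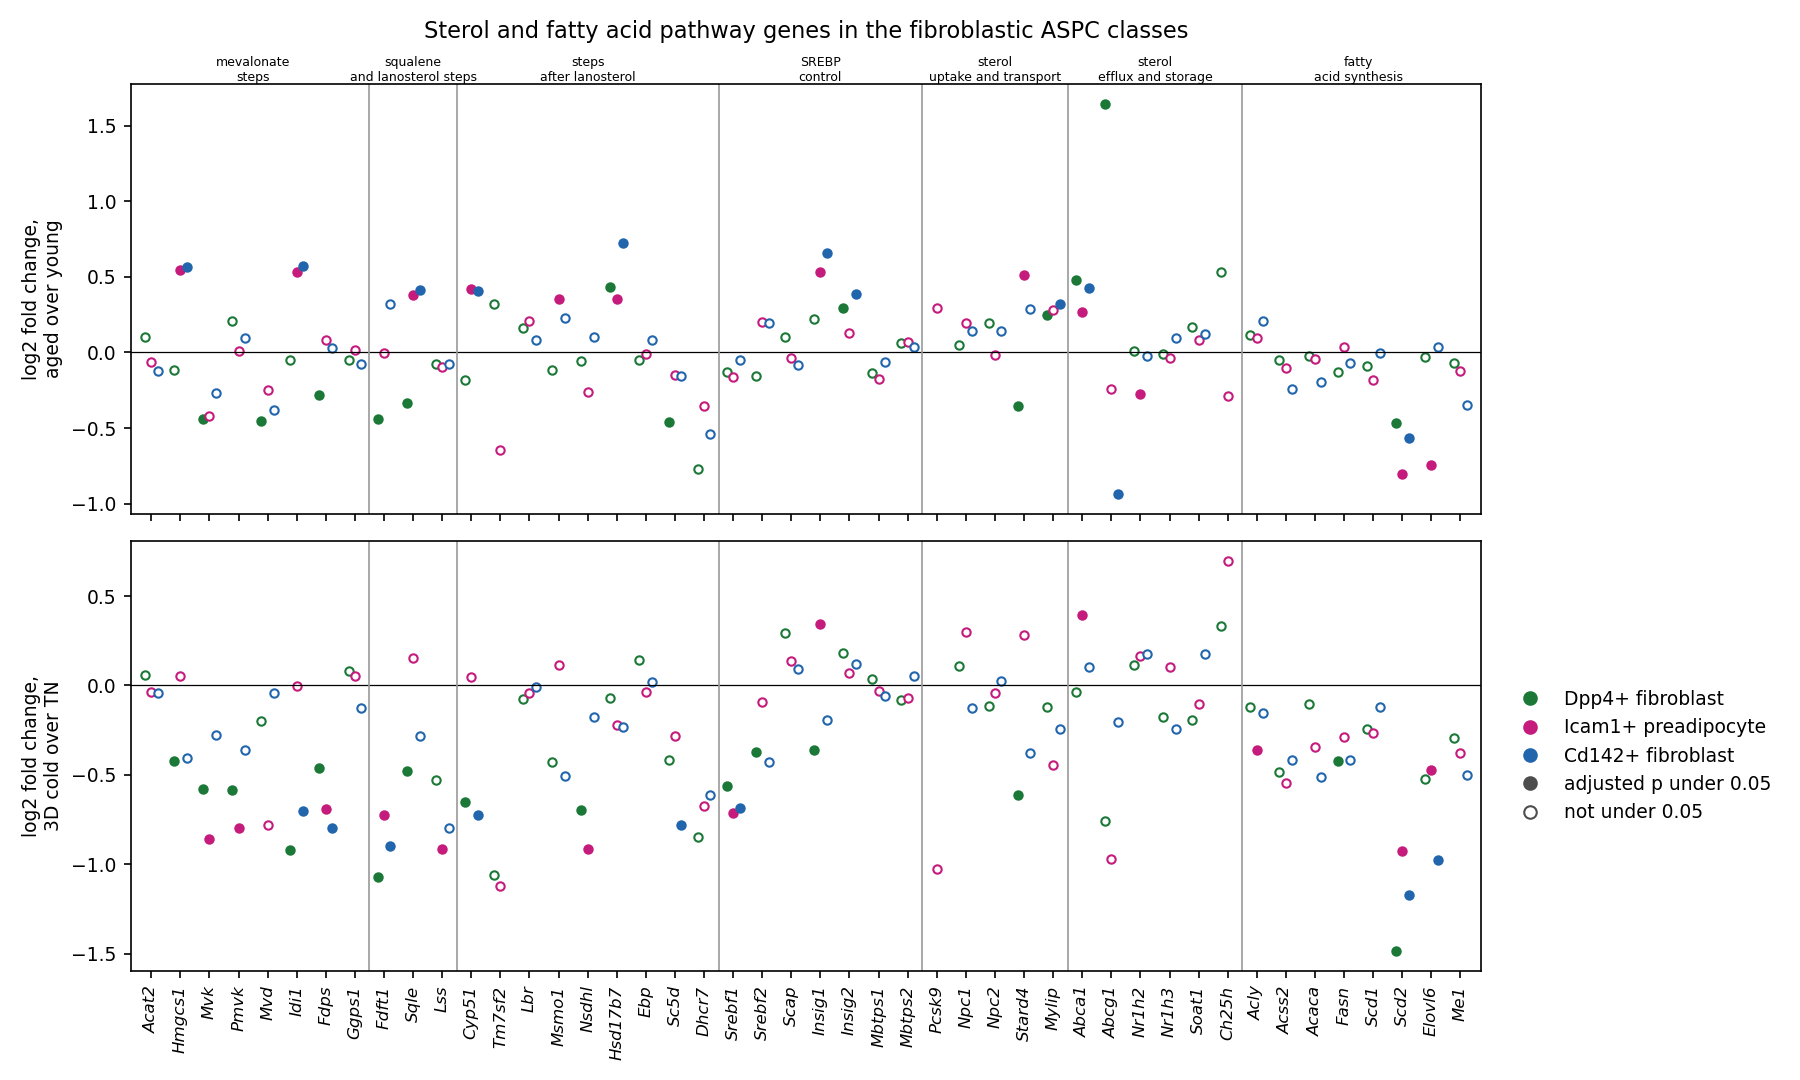
Log2 fold change with age (top) and at 3D cold against TN (bottom) of the 7 cholesterol synthesis genes and 39 further pathway genes in the 3 ASPC classes, grouped by role; filled points have an adjusted p under 0.05. Filled points in the mevalonate, squalene and later sterol steps at 3D cold all lie below 0, while Insig1, placed under SREBP control, has a filled point above 0 in Icam1+ preadipocytes (0.34), and the Dpp4+ point of Fdft1 is the lowest filled point of those steps, at -1.07.

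Single cells held few of these transcripts. With each cell thinned to 2000 UMIs, Hmgcs1 was seen in 28.4% (exact binomial 95% interval 26.5 to 30.4) of Icam1+ preadipocytes at TN, 25.7% at 3D cold and 33.9% at 14D cold in young mice, and in 33.5%, 38.0% and 40.4% (37.9 to 43.0) in aged mice. The aged share was the higher at each temperature. In Dpp4+ fibroblasts the share of cells with Hmgcs1 was 13.5%, 9.95% and 14.2% in young and 12.3%, 8.49% and 13.99% in aged mice in the same order. Here the aged share was the lower at each temperature, with overlapping intervals of the ages each time. Insig1 was seen in 22.1% to 27.2% of young and 27.6% to 36.8% of aged Icam1+ preadipocytes. Before thinning, the median share of cells over the 6 libraries was 68.5% for Hmgcs1 and 65.8% for Insig1 in Icam1+ preadipocytes. All gated classes can make cholesterol, so none gives the background share that free RNA would leave, and the intervals cover counting error only.

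Markers of adipocytes, immune cells and lymphatic endothelium were low in the ASPC sums, while those of the other ASPC classes were not low in Cd142+ cells. There the 8 Icam1+ markers summed to 2239 to 3968 CPM, beside 2161 to 2531 CPM for the 7 Cd142+ markers. The 10 Dpp4+ markers summed to 773 to 1359 CPM in Cd142+ cells, and the part of either list in the Cd142+ values was not tested. The 7 adipocyte genes summed to 6.82 to 26.7 CPM in Dpp4+, 23.3 to 80.1 in Icam1+ and 8.13 to 56.7 in Cd142+ cells, with 3 genes called higher with age in each class (of 6, 6 and 3 tested), and their part in the age differences was not tested. Immune markers summed to at most 7.12 CPM. The macrophage list ran from 7.12 to 13.5 CPM in young and from 13.3 to 24.3 CPM in aged Icam1+ preadipocytes, where both genes tested were called higher with age (median 1.07), while in Cd142+ fibroblasts 1 of 2 was called lower; their part in the age differences was not tested either. The lymphatic endothelial list reached 6.48 CPM, with the 1 gene tested in Dpp4+ fibroblasts called higher with age. In Icam1+ preadipocytes 1 of 6 adipocyte genes tested was called higher at 3D cold. Cycling genes were lower with age in Dpp4+ fibroblasts (4 of 5 called), from 5.76 to 12.5 CPM in young and from 2.55 to 4.41 CPM in aged mice, and 1 of 4 was in Icam1+ preadipocytes. The 10 dissociation-response genes summed to 14320 to 28620 CPM, and with age edgeR called 2 of them higher and 1 lower in Dpp4+ fibroblasts, while 1 was called higher in Icam1+ preadipocytes and in Cd142+ fibroblasts the count higher was 2. Red blood cell genes were uneven, at 459 CPM in young 3D cold Icam1+ preadipocytes against 1.55 to 163 in the other libraries of that class.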

How the data were processed

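Single-cell 3′ UMIs were counted per gene and barcode by the authors with Cell Ranger on mm10, and the deposited values are raw counts in filtered matrices. Reads that match more than 1 place are not counted by Cell Ranger, so genes with near-identical copies may be undercounted. Cells with more than 200 genes and within 3 median absolute deviations of their library's center were kept. Classes were gated on mean marker scores (at least 0.25, and 0.25 above the next class), not taken from the study's annotation. The 5230 cells with the highest doublet scores of their libraries were removed only in an alternative. Their number was set by an assumed rate of 0.8% per 1000 barcodes, not by the scores.

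UMIs were summed per library and class and tested with edgeR 4.0.16 (R 4.3.3, TMM factors, expression filter, quasi-likelihood F test, age and temperature as terms, Benjamini-Hochberg threshold 0.05), which leaves few residual degrees of freedom. Standard errors were taken from the fold change and F. Class comparisons had library as a block. Counting used Python 3.11.15 and scanpy 1.11.5. The tests were checked on simulated counts. Shares of cells were taken after drawing 2000 UMIs from each cell, which left out 4289 cells with fewer.

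Alternatives were DESeq2 1.42.0, RLE factors, no expression filter, no second factor, each library left out, equal cells at 2000 UMIs, other gates (no margin, or a score of 0.5), fixed cell limits and removal of doublet scores. The 3D cold by class test and the fit with both interactions were chosen after seeing the data. The 7 genes and all gene lists were chosen with earlier results of these data known. Besides the 7, pathway genes past the threshold in an ASPC class were named, up to 12 of those reported per comparison by size, and the 10 most correlated genes. Some pathway genes are not reported here, and the pathway counts leave them out.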

Additional observations from a re-analysis of the deposited data

Results flagged for a closer look

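The age effect differed between Cd142+ and Dpp4+ fibroblasts for 4 of the cholesterol synthesis genes, by a direct test of the difference with library as a block. On the log2 scale the difference was 0.70 for Hmgcs1, 0.77 for Sqle, 0.64 for Idi1 and 0.46 for Insig1. In Cd142+ fibroblasts all 4 were higher in aged mice at each of the 3 temperatures, and in Dpp4+ fibroblasts Sqle was lower at each. Hmgcs1 (-0.12), Idi1 (-0.05) and Insig1 (0.22) were not called for age in Dpp4+ fibroblasts, and Insig1 had the same direction as in Cd142+ fibroblasts. The gated Cd142+ cells of the aged 14D cold library were shallow and had the highest endothelial marker sum (111 CPM). Without that library Hmgcs1, Idi1 and Sqle were called, and without the young 14D cold library only Hmgcs1 was.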

How the results depend on the processing

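No direction of a called gene reversed under any alternative run. Counts of the 7 genes called moved as follows, and the cause was not tested. Without the second factor the count for age went to 0 (Dpp4+), 1 (Icam1+) and 1 (Cd142+), and those for 3D cold to 0 in all 3 and for 14D cold in Icam1+ preadipocytes to 0. With DESeq2 the counts were 0 for age in Dpp4+, 2 for 3D cold in Icam1+, 0 for 3D cold in Cd142+ and 0 for 14D cold in Icam1+ cells. With equal cells at 2000 UMIs these same 4 counts were 0, 2, 0 and 0. The 14D cold count in Dpp4+ fibroblasts was 1 (Sqle) with RLE factors, no filter, no gate margin or a gate of 0.5. In Icam1+ preadipocytes it was 0 with either other gate and 4 with no filter, and the 3D cold count was 2 with a gate of 0.5. With both interactions in one fit the counts were 4 for age in Icam1+ against Dpp4+, and 3 each for 3D cold in Icam1+ against Dpp4+ and in Cd142+ against Icam1+ cells.

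Leaving out 1 library gave 1 to 3 (age), 1 to 6 (3D cold) and 0 to 0 (14D cold) in Dpp4+, 2 to 4, 0 to 4 and 0 to 4 in Icam1+ and 3 to 4, 0 to 4 and 0 to 0 in Cd142+ cells. Calls in either direction are counted here. For age by class it gave 0 to 1 for Icam1+ and 1 to 5 for Cd142+ against Dpp4+ cells. Gene by gene, results that had passed stayed past the threshold in 268 cases and lost it in 80 when 1 library was left out, and in 288 and 61 cases under the other settings. These cases pool the comparisons between class levels with the age, cold and age by class results. They therefore do not show how often the age or cold calls alone were kept. Unthinned, the median share of cells with Hmgcs1 was 34.1%, 68.5% and 32.4% in Dpp4+, Icam1+ and Cd142+ cells and that with Insig1 44.2%, 65.8% and 33.5%. By replicate number, no paired analysis was possible because each age and temperature has 1 library; the temperature term set young beside aged libraries, and class comparisons had library as a block. Low counts of Lss and the few Schwann-like, immune-like and SMC/pericyte-like cells limit what could be detected.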
